A study of Oryctolagus cuniculus with 16 samples.

Results

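TM4SF18, 1 of the 13788 gene symbols in the count table, was followed through all 16 libraries of the series. It was chosen by name, with its medial levels at both locations already known, so the difference between locations in the media is given as a description without a test. The libraries came from 4 female New Zealand white rabbits, of which rabbits 3 and 4 had sham surgery (normal flow) and rabbits 5 and 6 had both common carotid arteries ligated, which raises flow through the basilar artery (BA). Tissue was taken 24 h after surgery from the straight BA and from the basilar terminus (BT), the bifurcation at its end, and at each place the intima and the media were cut apart by laser microdissection, with about 10 sections combined per library. Each of the 8 combinations of layer, location and flow thus held 2 rabbits, and each rabbit gave 4 libraries. No genetic change or other agent separated the groups, and age was not given in the labels.

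TM4SF18 encodes a multi-pass membrane protein of the L6 family. The proteins of this family resemble tetraspanins, which organize integrins and other receptors in patches of the plasma membrane, but they form a family of their own. Its best known member, TM4SF1, is abundant in endothelial cells, where it takes part in cell spreading, migration and vessel growth. Far less is known of TM4SF18.

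The 8 intimal libraries held 5211886 to 17686105 counts on named genes and the 8 medial libraries 2154863 to 11219236. The layers were checked by 11 endothelial markers (PECAM1, VWF, CDH5 and others), whose summed level was 1320 to 6440 CPM (counts relative to library size, corrected by TMM factors over the 16 libraries) in the intima and 473 to 1759 CPM in the media. Smooth muscle markers summed to 10451 to 74054 CPM in the intima and 66619 to 117646 CPM in the media, so each layer held RNA of the other. In such bulk tissue, fewer cells of a type and less RNA per cell cannot be told apart.

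TM4SF18 was low in the intima of sham rabbits. In the BA intima it was at 17.8 CPM in rabbit 3 (316 counts) and 32.6 CPM in rabbit 4 (436 counts). In the BT intima it was at 15.7 CPM in rabbit 3 (232 counts) and 37.5 CPM in rabbit 4 (256 counts). At both places rabbit 4 was the higher of the pair, and the locations overlapped. In ligated rabbits the BA intima held 503 CPM in rabbit 5 (4722 counts) and 1233 CPM in rabbit 6 (7205 counts). The BT intima held 1424 CPM in rabbit 5 (16478 counts) and 821 CPM in rabbit 6 (9970 counts). All 4 ligated intimal libraries were thus above all 4 sham intimal libraries, as for 6.07% of the genes measured in the intima.

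The media held less of it. In the BA media of sham rabbits TM4SF18 had 0 counts in rabbit 3 and 0 counts in rabbit 4. A count of 0 allows up to 3 counts (the 95% limit, for counting error only), which is 0.283 CPM in the library of rabbit 3 and 0.491 CPM in that of rabbit 4. In the BT media of the same rabbits it was at 16.0 CPM in rabbit 3 (55 counts) and 8.23 CPM in rabbit 4 (51 counts). Ligated rabbits had 334 CPM in the BA media of rabbit 5 (634 counts) and 47.7 CPM in that of rabbit 6 (182 counts). Their BT media held 304 CPM in rabbit 5 (974 counts) and 181 CPM in rabbit 6 (1549 counts). Again all 4 ligated libraries were above all 4 sham libraries, as for 7.45% of the genes measured in the media, and the BA media of rabbit 6 was the lowest of the ligated libraries in either layer.

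**Figure D1:**
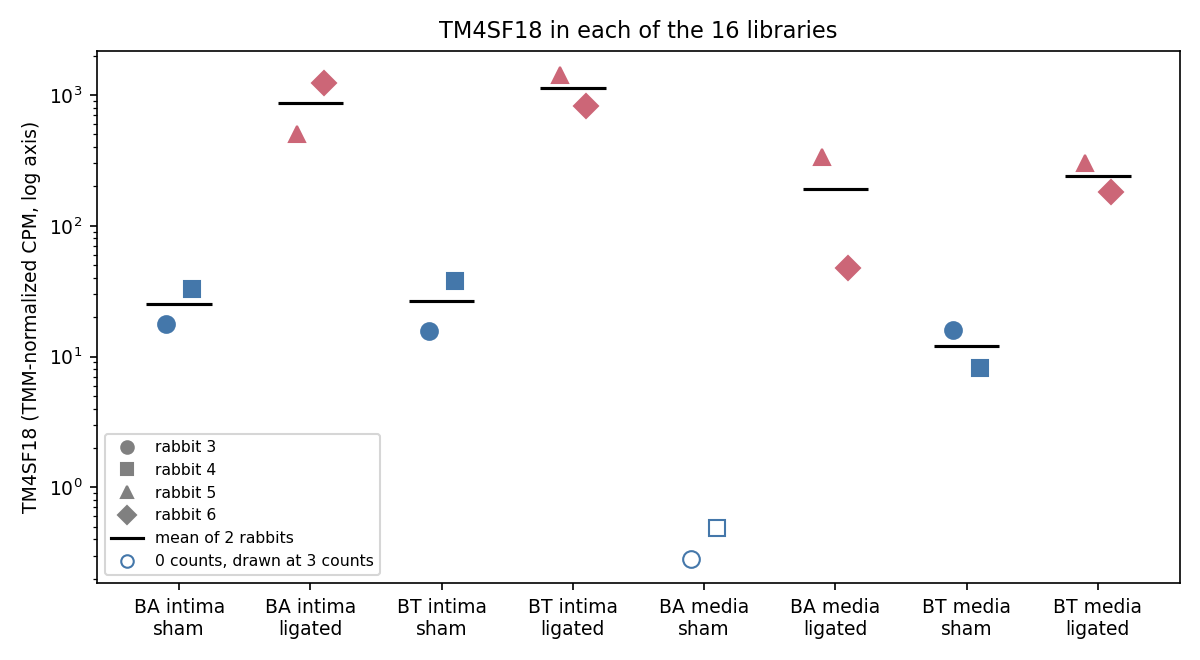
TM4SF18 in TMM-normalized CPM on a log axis for each library, by location, layer and flow. Symbols mark the rabbit and black lines the mean of 2 rabbits, and the 2 sham BA media libraries with 0 counts are drawn as open symbols at the level of 3 counts; ligated libraries lie between 47.7 and 1424 CPM, above the sham libraries.

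Ordered by mean, the groups ran from the ligated BT intima (1122 ± 426 CPM, SD, n = 2 rabbits) and the ligated BA intima (868 ± 516) through the ligated BT media (242 ± 86.7) and the ligated BA media (191 ± 203) to the sham BT intima (26.6 ± 15.4), the sham BA intima (25.2 ± 10.4), the sham BT media (12.1 ± 5.48) and the sham BA media at 0. The ligated groups of the BT and the BA overlapped within each layer, and so did the sham intima of the BT and the BA. The gap in means between the ligated intima and the ligated media (626 CPM between the BA intima and the BT media) was larger than the SD of either group. The gap in means between the ligated BA media and the sham BT intima (164 CPM) was smaller than the SD of the BA media. The sham BA intima and the sham BT media did not overlap, nor did the sham BT media and the sham BA media. The means of the former 2 groups were 13.1 CPM apart, but their nearest libraries were at 17.8 and 16.0 CPM. The sham BT intima, with a lowest library at 15.7 CPM, did overlap the sham BT media. The lowest ligated library, the BA media of rabbit 6, was 1.27 times the highest sham library, the BT intima of rabbit 4. Of 8702 genes with a mean above 1 CPM, 114 (1.31%) likewise had all 8 ligated libraries of both layers above all 8 sham libraries.

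The first question of the study was what ligation changed in each tissue. Ligated over sham, the mean level of TM4SF18 was 34.4-fold in the BA intima and 42.2-fold in the BT intima. In the media it was at least 494-fold at the BA, computed against 3 counts in each of the sham libraries, and 20.02-fold at the BT. The study counted TM4SF18 among its DEGs of the intima, chosen on these same libraries. Its medial levels were already known when it was chosen here, and the 4 comparisons share rabbits. The following tests are thus not independent of these choices or of each other, and the medial q-values are no separate evidence.

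In the media, TM4SF18 rose past the q-value threshold of 0.05 at both locations, by edgeR's quasi-likelihood F test with Benjamini-Hochberg adjustment over all genes tested. At the BT the log2 fold change was 4.35 (standard error 0.49, q = 0.00115, n = 2 against 2), where 1.16% of 8783 genes were called higher and 2.35% in either direction. At the BA the test gave q = 0.0219 (edgeR, 0.432% of 8800 genes called higher and 0.807% in either direction). Its fitted log2 value, 13.06, depends on the prior count because both sham libraries were at 0, and the bound above stands in its place. The BA call did not hold without any 1 of the 4 rabbits, with edgeR q-values from 0.0578 without rabbit 6 to 0.374 without rabbit 5, and then 0 genes passed. It was also lost under the version 4 form of edgeR's test (q = 0.114), and the BT call under a fit over all 16 libraries (q = 0.0748).

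In the intima the same test did not pass the threshold. At the BA the log2 fold change was 5.11 (standard error 0.66, edgeR q = 0.208). At the BT it was 5.41 (standard error 0.67, edgeR q = 0.247). TM4SF18 had the smallest unadjusted p of all 8974 genes tested at the BA (2.94e-05) and the fifth smallest of 9273 at the BT (0.000137). No gene was called in either (0%), with 534 and 1079 genes at an unadjusted edgeR p below 0.05, and with 122 and 613 genes called by DESeq2's Wald test. The study's own edgeR analysis reported DEGs in the intima at both locations, so its intimal calls were not reproduced by the edgeR test used here. DESeq2 called TM4SF18 at both (q = 9.61e-17 at the BA and 2.39e-16 at the BT). With edgeR, the BA call was made without rabbit 3 (q = 2.47e-06) or without rabbit 4 (q = 3.05e-08), and the BT call without rabbit 4 (q = 0.0155).

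Both ligated libraries were above both sham libraries in each of the 4 tissues. This held for 15.4% of the genes tested in the intima of the BA and 20.4% in that of the BT, for 21% and 25.4% in the media of the BA and of the BT, and in all 4 tissues at once for 292 of 7930 genes (3.68%). Whether the change with ligation differed between layers or locations was tested with rabbit as a block. The difference of intima and media in the change was 1.11 on the log2 scale at the BT (standard error 0.70, edgeR q = 1). At the BA, where the medial change has no finite fold, the same test gave an edgeR q of 1. Between the BT and the BA intima the change differed by 0.43 (BT minus BA, standard error 0.72, edgeR q = 1). None of the 3 tests called TM4SF18, and none called any other gene (0% of 9514 to 9641 genes). By unadjusted p below 0.05 they gave 466, 232 and 332 genes, and DESeq2 called 111, 11 and 64.

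TM4SF1 allowed a comparison within each library that does not depend on scaling. It was at 775 to 2196 CPM in the sham intima and 1357 to 3176 CPM in the ligated intima, and at 308 to 630 and 418 to 935 CPM in the sham and ligated media, with overlap of the flow groups in each layer, although both ligated BA media libraries were above both sham ones. Its log2 fold change with ligation was 0.23 (standard error 0.55) at the BA and 0.90 (0.58) at the BT in the intima, and 0.98 (0.41) and 0.19 (0.33) in the media, and edgeR's q-values were 0.339 to 0.993. Per 100 counts of TM4SF1, the sham intima held 1.48 to 2.03 counts of TM4SF18, and the ligated intima held 37.1 to 52.9. The sham BT media held 3.25 counts in rabbit 3 and 1.31 in rabbit 4, and the sham BA media none, which allows up to 0.0917 and 0.129. In the ligated media 3 libraries held 35.8 to 38.3, near the ligated intima, and the BA media of rabbit 6 held 11.4. These ratios compare libraries, not the abundance of both genes, whose lengths were not used.

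**Figure D2:**
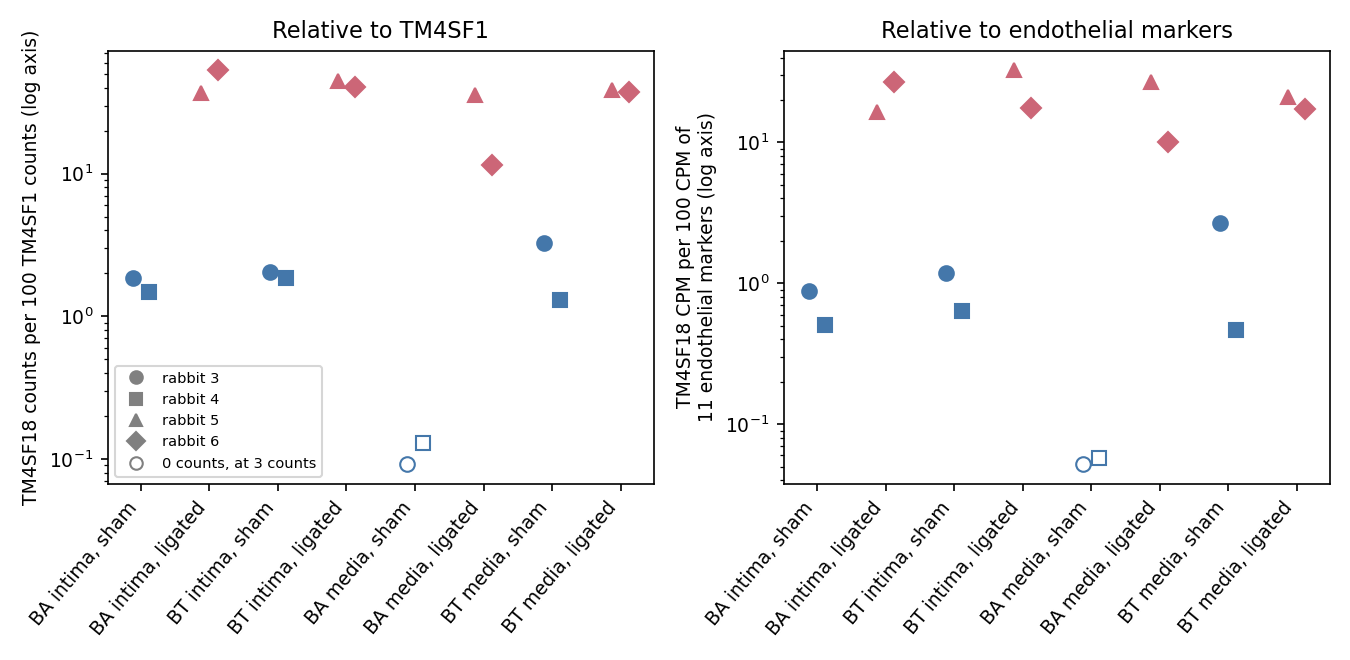
TM4SF18 in each library relative to TM4SF1 (left, counts per 100 TM4SF1 counts) and to the summed CPM of 11 endothelial markers (right, CPM per 100 CPM), on log axes; open symbols stand for 0 counts, drawn at 3 counts. On both scales the ligated libraries, in red, lie above the sham libraries, in blue, with the BA media of rabbit 6 lowest among them (11.4 and 10.1).

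The summed level of the endothelial markers, ligated over sham, was 0.906-fold at the BA and 1.25-fold at the BT in the intima, and 1.23-fold and 1.05-fold in the media, with overlap in all 4 tissues. Of the 10 or 11 markers tested in each tissue, 0 passed the q-value threshold (edgeR). Of all genes tested, 0% passed in the intima and 0.807% and 2.35% in the BA and BT media. The median log2 fold changes of the markers were 0.36, 1.09, 1.05 and 1.49, beside -0.10, -0.13, -0.15 and 0.03 over all genes tested, in the same order. In the BA intima the sum was thus lower in ligated rabbits while the median of the markers was positive. By layer, 9 of the 11 were higher in the intima (edgeR, beside 4.85% of all genes tested). ESAM was not called (log2 difference of intima and media -0.09, edgeR q = 0.872). The sum in the media thus need not follow endothelial RNA alone. Single markers ran from -0.81 (VWF) to 4.53 (EMCN) in the BA intima and from -1.73 (VWF) to 2.90 (EMCN) in the BT intima, and from -0.35 (TIE1) to a fitted 7.36 (EMCN) in the BA media and from -0.63 (ERG) to 3.33 (TIE1) in the BT media. EMCN, the endothelial sialomucin endomucin, came closest to TM4SF18 in the BA intima (log2 fold change 4.53 against 5.11, standard error 0.98, edgeR q = 0.373). It was at 0.897 to 8.05 CPM in the 4 sham and at 22.7 to 65.0 CPM in the 4 ligated intimal libraries, without overlap, and had at most 13 counts in a medial library, with 0 in the sham BA media. Its part in the change of TM4SF18 was not tested. PECAM1, the platelet endothelial adhesion molecule, was 1.77-fold and 2.12-fold in the intima, without overlap (445 against 444 CPM between the nearest BA libraries), and overlapped between flow groups in the media at both locations. Per 100 CPM of the endothelial sum, TM4SF18 was at 0.506 to 1.19 CPM in the sham intima and 16.4 to 32.4 CPM in the ligated intima. In the ligated media it was at 10.1 to 27.0 CPM.

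Some markers of other cells also moved with flow. The 7 leptomeningeal and fibroblast markers, such as DCN and LUM, summed to 2990 to 18304 CPM in the sham intima and 229 to 4212 CPM in the ligated intima, and to 12618 to 30705 CPM and 3736 to 5714 CPM in the media. In the intima their log2 fold changes were negative for 6 of 7 genes at the BA and 7 of 7 at the BT. There 0 passed the q-value threshold (edgeR), as did 0% of all genes tested. In the media they were negative for 7 of 7 at the BA and 6 of 7 at the BT. By edgeR, 3 fell at the BA and 1 at the BT, beside 0.375% and 1.18% of all genes tested that were called lower there. The 6 macrophage markers summed to 4.48 to 829 CPM in the sham intima and 0 to 107 CPM in the ligated intima, with C1QB at 0 in all 4 of the latter, and to 39.7 to 285 and 28.8 to 125 CPM in the media. In the BT media 3 of 4 macrophage markers tested had positive log2 fold changes, up to 2.92 for C1QA (edgeR q = 0.157). In the BA media 4 of 4 were negative. The 5 pericyte markers measured summed to 255 to 688 CPM in the sham intima and 186 to 444 CPM in the ligated intima. In the sham and ligated media they summed to 622 to 1458 and 813 to 899 CPM. ABCC9 rose in the BA media, beside 0.432% of all genes called higher, while 3 of the 5 had negative log2 fold changes. At the BT, ABCC9 rose and RGS5 fell in the media, beside 1.16% of all genes called higher and 1.18% called lower. In that tissue 4 of the 5 were negative. Of 5 smooth muscle markers, MYH11 and LMOD1 fell in the BT media, where 1.18% of all genes were called lower. There 4 of the 5 were negative and DES was positive (log2 fold change 1.05, edgeR q = 0.229). The smooth muscle sums overlapped, at 71125 to 100327 CPM in the sham and 66619 to 117646 CPM in the ligated media. Brain parenchymal markers stayed at or below 10.9 CPM, with AQP4 at 0 throughout, and epithelial and ependymal markers at or below 4.396 CPM except for 46.8 CPM in the sham BT intima of rabbit 3. The part of these cells in the change of TM4SF18 was not tested.

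The second comparison set the intima against the media of the same rabbit and location. The intima held more TM4SF18 than the media in 7 of 8 pairs, as it did for 13.2% of 9056 genes in at least 7. In sham rabbits the ratio was at least 63.0 in the BA of rabbit 3 and at least 66.4 in the BA of rabbit 4, where the media had 0 counts. It was 4.56 in the BT of rabbit 4 and 0.982 in the BT of rabbit 3, the pair that went the other way. In ligated rabbits it was 1.504 in the BA of rabbit 5, 25.8 in the BA of rabbit 6, 4.69 in the BT of rabbit 5 and 4.54 in the BT of rabbit 6. The median over the 8 pairs was 4.62.

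The layers differed by 2.75 on the log2 scale (standard error 0.76, edgeR q = 0.0421, with the 8 pairs as a block), and 4.85% of 9056 genes were called higher in the intima, 8.98% in either direction. The 8 log2 ratios, with a pseudocount of 0.5 CPM, had a mean of 2.88 ± 2.20 (SD), and flipping their signs in an exact permutation test (two-sided) gave p = 0.0156, where 8 pairs allow no p below 0.00781. The 8 pairs came from 4 rabbits, and both tests took the BA and BT pairs of a rabbit as separate. As units, 4 rabbits would allow no sign-flip p this small. The medial levels in these pairs were also known when the gene was chosen. Without rabbit 4, 5 or 6 the edgeR test gave q = 0.161, 0.0615 and 0.212, and the sign-flip test an exact p = 0.0625, where 6 pairs allow no p below 0.0313. Without rabbit 3 the call was kept (edgeR q = 0.0222). The intima held more TM4SF1 than the media in 8 of 8 pairs, by 1.71 on the log2 scale (standard error 0.24, edgeR q = 0.00192). Its ratios in the ligated pairs were 1.45 in the BA and 4.01 in the BT of rabbit 5 and 5.57 in the BA and 4.16 in the BT of rabbit 6. Among the ligated pairs, the genes were thus furthest apart in the BA of rabbit 6. In the sham BA, the TM4SF1 ratios were 3.10 and 5.76, further from the bounds of TM4SF18. For PECAM1 the intima exceeded the media in all 8 pairs, by ratios of 3.003 to 114, the last in the BA of rabbit 6.

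**Figure D3:**
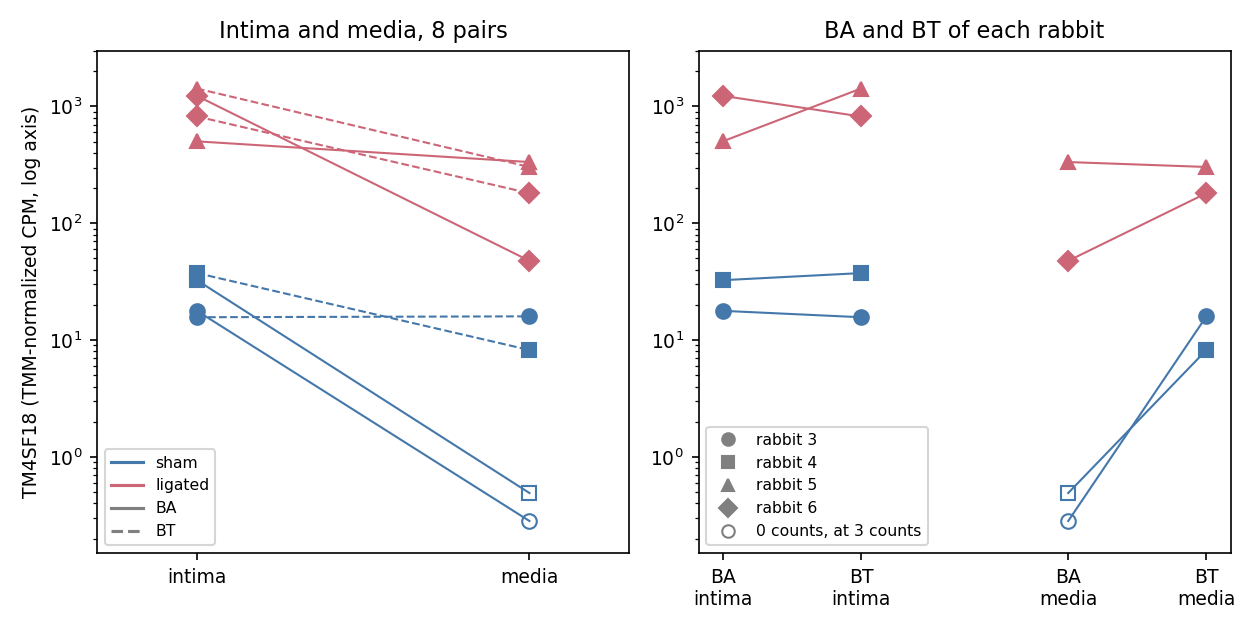
TM4SF18 in TMM-normalized CPM, log axis, with lines joining the intima and media of the same rabbit and location (left) and the BA and BT of the same rabbit (right). Blue is sham and red ligated, symbols mark rabbits, and open symbols are 0 counts drawn at 3 counts; 7 of 8 pairs fall from intima to media, and both sham rabbits climb from the BA to the BT in the media.

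Location was compared within each rabbit. In the intima, the BT level over the BA level was 0.881 in rabbit 3, 1.15 in rabbit 4, 2.83 in rabbit 5 and 0.666 in rabbit 6, and the BT was higher in 2 of 4 rabbits. The log2 difference was 0.22 (standard error 0.35, edgeR q = 1.00, with rabbit as a block), where 0.011% of 9131 genes were called higher. Without rabbit 5 it was -0.19. The difference in the intima did not exceed the spread between rabbits.

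In the media, the difference belongs to the choice of the gene and is given without a test. The BT level was at least 56.5 times the BA level in rabbit 3 and at least 16.8 times in rabbit 4. In ligated animals it was 0.908 times in rabbit 5 and 3.79 times in rabbit 6. The BT was thus higher in 3 of 4 rabbits, and the ligated libraries of the BT and BA overlapped. The mean log2 difference with a pseudocount of 0.5 CPM was 2.74 ± 2.32 (SD, n = 4 rabbits). In sham rabbits both BT libraries were above both BA libraries, as for 15.6% of 8506 medial genes.

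Depth and endothelial markers were measured beside this difference. The sham BA media libraries with 0 counts of TM4SF18 were deep, with 11219236 counts in rabbit 3 and 6238103 in rabbit 4, against 3978419 and 6911390 in the sham BT media. TM4SF1 was at 308 and 381 CPM in the sham BA media and at 491 and 630 CPM in the sham BT media. PECAM1 was at 2.92 CPM in the BA media of rabbit 3 and 4.65 CPM in its BT media, and in rabbit 4 at 35.7 CPM and 134 CPM. The endothelial sum of rabbit 3 was 543 CPM in the BA and 594 CPM in the BT media, and that of rabbit 4 was 848 and 1759 CPM. This sum includes ESAM, which was not called between layers, so it need not measure endothelial RNA alone. Per 100 CPM of that sum, TM4SF18 was at 2.69 CPM in the BT media of rabbit 3 and 0.468 CPM in that of rabbit 4, whereas 0 counts in the BA media allow up to 0.0521 and 0.0579 CPM. In the ligated rabbit 6, whose BA media was low in TM4SF18, PECAM1 was at 5.77 CPM in the BA and 58.8 CPM in the BT media, and the endothelial sum at 473 and 1041 CPM. In rabbit 5, which had similar TM4SF18 at both, PECAM1 was at 148 and 133 CPM and the endothelial sum at 1237 and 1436 CPM. The part of endothelial RNA in the medial difference was not tested.

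The table held 4 other TM4SF genes. TM4SF4, TM4SF5 and TM4SF20, known mainly from epithelia of the liver and gut, were nearly absent, with at most 2, 6 and 28 counts in a library and counts in 2, 2 and 3 of 16 libraries. Only TM4SF20 reached the test in 1 tissue, the BT intima, on 2 libraries with 8 and 28 counts. TM4SF19 was not among the gene symbols counted, so it could not be analysed. Of 33 true tetraspanins listed, 24 were among the gene symbols counted and 14 to 19 were tested in each tissue. Of those tested, 0 were called with ligation in any tissue (edgeR). Among all genes, 0% were called in the intima, and 0.807% and 2.35% in the media of the BA and BT. A list this short would thus seldom hold a call, and the members left untested are not covered. The tested tetraspanins had medians of log2 fold change of 0.10 and 0.13 in the intima of the BA and BT and of 0.24 and 0.48 in their media. The smallest q-values among them were those of TSPAN1 in the BA intima (log2 fold change 5.57, standard error 1.25, edgeR q = 0.390), TSPAN13 in the BT intima (2.32, q = 0.279), TSPAN1 in the BA media (fitted 7.87, q = 0.367) and TSPAN2 in the BT media (-1.48, q = 0.0662). By layer, 6 of 16 tetraspanins were higher in the intima and 0 higher in the media, beside 4.85% and 4.13% of all genes tested, led by CD9, a broadly expressed partner of integrins (log2 difference 1.87, standard error 0.24, edgeR q = 0.00107), and TSPAN6 (1.38, q = 0.0133).

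Of 13 receptors and partners that tetraspanins bind, 1 passed with ligation in each location of the media, as a rise, and 0 in the intima. Among all genes tested, 0.432% were called higher in the media of the BA and 1.16% in that of the BT. In the intima 0% were called at either location, so the intimal count says nothing of this list. The member that passed was ITGA5 at both locations of the media, the alpha chain of the fibronectin receptor. Its log2 fold change was 2.17 in the BA media (standard error 0.38, edgeR q = 0.0481) and 2.07 in the BT media (standard error 0.32, edgeR q = 0.00676), beside 1.19 and 1.69 in the BA and BT intima (q = 0.807 and 0.341). Medians of the list were 0.69 and 1.01 in the intima of the BA and BT and 1.41 and 1.29 in their media. By layer, ITGB4, F11R and SDCBP were higher in the intima and ITGA5 and CD44 higher in the media, beside 4.85% and 4.13% of all genes tested. Of the genes of sprouting endothelium, 0 of 11 or 12 tested passed with ligation in any tissue. Of all genes tested, 0% passed in the intima and 0.807% and 2.35% in the BA and BT media, so so short a list would seldom hold a call. By layer, 3 of 12 (DLL4, ROBO4 and ADGRL4) were higher in the intima than in the media, beside the same 4.85% of all genes. ADGRL4, an adhesion receptor of endothelial cells, had log2 fold changes with ligation of 1.88 and 2.502 in the BA and BT intima (edgeR q = 0.662 and 0.247). The list did not rise as a whole there. Its median was 0.57 in the BA intima, with 4 of 11 genes negative. In the BT intima the median was -0.02, with 6 of 12 negative, down to -5.41 for ESM1. Medians in the BA and BT media were 1.74 and 0.27, with 4 of 11 negative in each. All of these lists were chosen with earlier results of these libraries known.

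On the chromosome, in the order of genes in the mOryCun1.1 assembly of RefSeq, the nearest named genes with counts were TM4SF1, TM4SF4, WWTR1 and COMMD2 on 1 side and CP, HPS3, HLTF and GYG1 on the other. WWTR1 encodes TAZ, a transcriptional coactivator of the Hippo pathway, and CP encodes ceruloplasmin, a copper-carrying ferroxidase. With ligation, 0 of the 7 neighbours tested passed the q-value threshold in any tissue (edgeR). Of all genes tested, 0% passed in the intima and 0.807% and 2.35% in the BA and BT media. WWTR1 had log2 fold changes of 0.05 and 0.80 in the intima of the BA and BT and of 0.36 and -0.30 in their media, and its CPM ranges in sham and ligated libraries overlapped in both layers. COMMD2 was at 60.5 to 114 CPM in the sham and 120 to 151 CPM in the ligated intima and at 33.2 to 77.5 and 107 to 141 CPM in the media, without overlap, with log2 fold changes of 0.49 to 1.12 (edgeR q = 0.243 to 0.862). The nearest to the threshold was CP in the BT media (1.21, standard error 0.29, q = 0.0539), with the opposite sign in the BA media (-1.44, standard error 0.31, q = 0.0795). HLTF, a DNA translocase, had negative values in all 4 tissues (-0.74, -1.52, -2.39 and -0.99, q = 0.0879 to 0.876). No neighbour had a log2 fold change above 1.62 in any tissue. In the table of RefSeq genes, 0 genes overlapped TM4SF18.

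**Figure D4:**
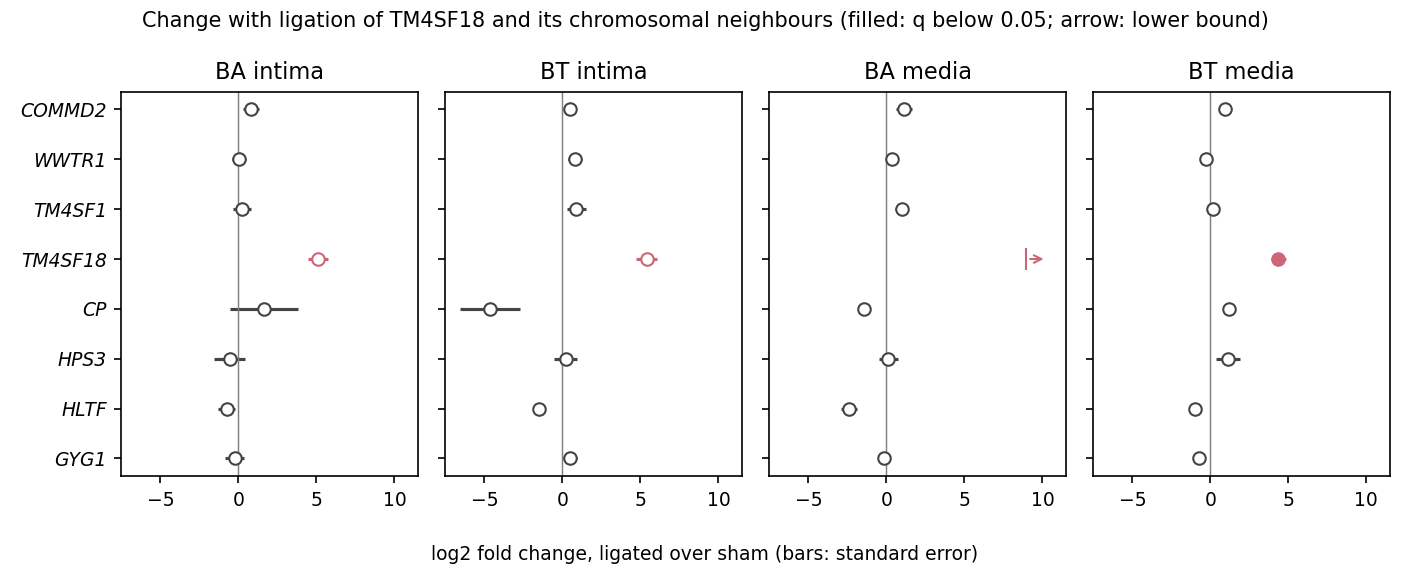
Log2 fold change of ligated over sham with its standard error (edgeR) for TM4SF18 and 7 neighbours in chromosomal order, 1 panel per tissue, with filled points for q-values below 0.05. The arrow in the BA media starts at the lower bound of TM4SF18, 8.95 (also past the threshold), and the neighbours lie between -4.62 and 1.62.

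The genes whose levels followed TM4SF18 most closely were found by Pearson's r on log2(CPM + 0.5), as a description, since the libraries fall into 2 flow groups and come from 4 rabbits. Over the 8 intimal libraries they were GPRC5A (r = 0.988), an orphan receptor, HMOX2 (0.987), the constitutive haem oxygenase, ANXA3 (0.985), a calcium-dependent membrane-binding protein, CAPN2 (0.982), a calpain protease, and ADGRL4 (0.981). In all 5 the 4 ligated libraries were above the 4 sham libraries, beside 6.07% of the genes measured in the intima. Such a separation follows largely from choosing genes by r with TM4SF18, and is no separate result. Their folds were far smaller than that of TM4SF18, as for GPRC5A with 18.7 to 28.4 CPM in sham and 82.0 to 143 CPM in ligated rabbits. Above r = 0.9 there were 125 of 8700 genes. Over the 8 medial libraries they were AIFM2 (0.975), DPP3 (0.974), ISG20L2 (0.972), ACVR1 (0.971), a type I receptor of bone morphogenetic proteins, and CLIC4 (0.969), with 48 of 8490 genes above 0.9. Over all 16 libraries they were SNCAIP (0.921), AIFM2 (0.915), ANXA7 (0.913), CCNYL1 (0.910) and HPRT1 (0.904), which recycles purines. AIFM2, an oxidoreductase of membrane quinones, was on both of the last lists, at 13.7 to 37.2 CPM in the 8 sham libraries and 39.3 to 102 CPM in the 8 ligated libraries. All 8 ligated libraries were above all 8 sham libraries for 1.31% of genes.

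The family member and the endothelial markers were less alike. TM4SF1 had r = 0.664 over the intimal, 0.774 over the medial and 0.700 over all libraries. PECAM1 had 0.831, 0.512 and 0.641, and CDH5, the endothelial cadherin, 0.725, 0.278 and 0.554. For VWF, the clotting factor stored in endothelial cells, r was -0.388 in the intima and 0.295 in the media, and for ACTA2, smooth muscle actin, -0.102 and 0.134. These values share the libraries, their depth and their rabbits.

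**Figure D5:**
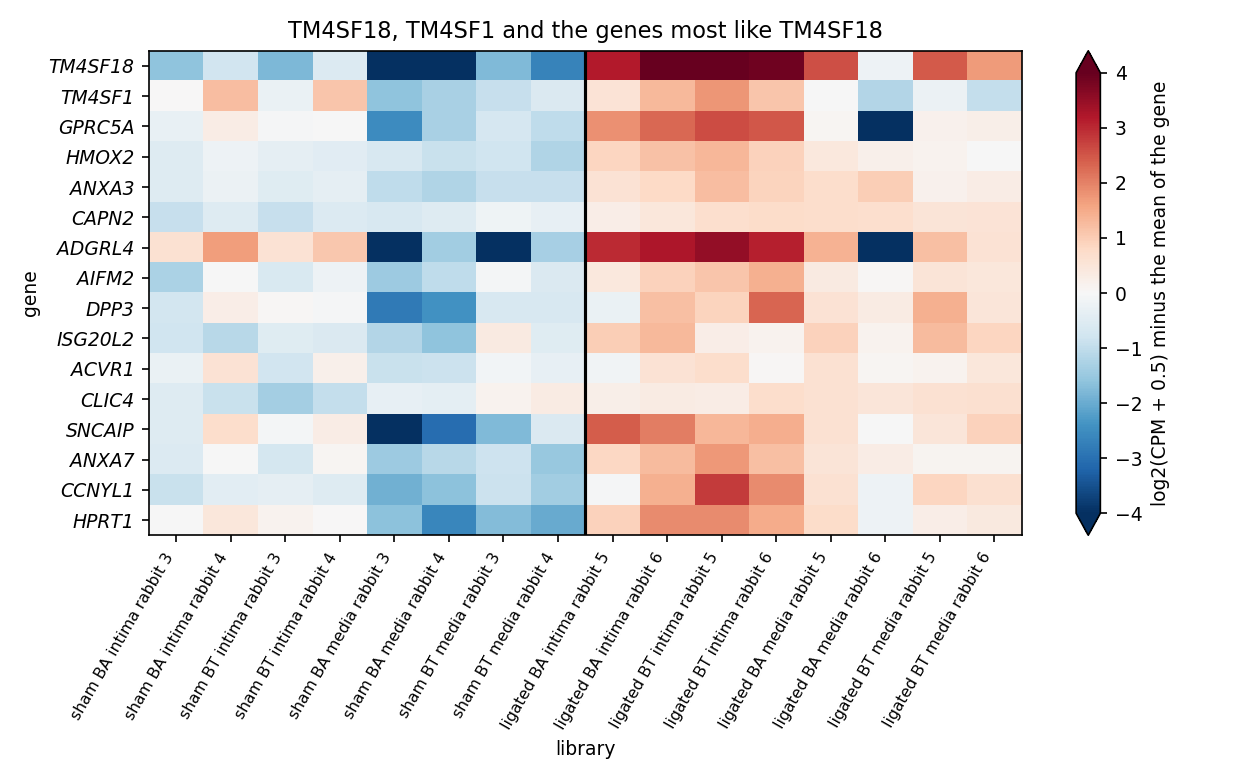
Level of TM4SF18, TM4SF1 and the genes most like TM4SF18 in the 16 libraries, as log2(CPM + 0.5) minus the mean of the gene over all libraries, with sham libraries left and ligated libraries right of the black line and colours that end at 4 above and below the mean. TM4SF18 is below its mean in the 8 sham libraries and has its highest values in the ligated intima, as has TM4SF1 in the ligated BT intima of rabbit 5.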

How the data were processed

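Per the labels and the study's methods, the authors amplified the RNA as cDNA by SMART-Seq v4 before Nextera library preparation, aligned single reads to oryCun2 with STAR, kept unique reads and counted them on exons of the Ensembl annotation with featureCounts 1.6.2. The deposited values are these raw counts per gene symbol. The study's methods give the reverse-stranded setting for this counting, while the kit does not mark strand. Reads of the other orientation may therefore have gone uncounted, which would lower all counts and bears on the 0 counts and their limits. This was not tested. Overlapping antisense transcripts cannot be told apart. An entry without a symbol (13.8% to 18.7% of counts) was left out, and 22 symbols read as dates stayed unmapped. No reads were re-aligned.

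Members and lists were chosen with earlier results of these data known. CPM were scaled by TMM over 16 libraries. Tests used edgeR 4.0.16 (quasi-likelihood F test, legacy form) in R 4.3.3 on genes with a mean above 1 CPM in at least 1 group, with q-values over all genes tested. Standard errors are the log2 fold change over the square root of F. Flow was tested per tissue, 2 against 2 different rabbits. Layer and location were tested with the pair or the rabbit as a block, since these libraries share the animal. Deviations of same-rabbit libraries from their group means correlated at -0.0332 to 0.383. Each library is 1 rabbit at 1 place. Named genes were TM4SF18, the TM4SF genes, list members with the smallest q-values, chromosomal neighbours (up to 4 per side) and the 5 genes of highest r. EMCN and other list members were named after their values were seen. Descriptions used Python 3.11.15 (numpy 2.4.6, scipy 1.17.1, pandas 2.3.3). Tests were checked on simulated data. Alternatives were other scalings, filters and blocks, DESeq2 1.42.0, edgeR's version 4 form, a 16-library fit and leaving out each rabbit. Ratios to TM4SF1 and to endothelial markers were added after seeing the data. Intervals and the 3-count limit cover counting error only.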

Additional observations from a re-analysis of the deposited data

How the results depend on the processing

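The change of TM4SF18 with ligation kept its sign under all 11 alternatives in each tissue, while its side of the threshold moved. In the BA intima it passed with all genes that had a count (log2 5.11), the version 4 form (5.11) and DESeq2 (5.14), and leaving out rabbits gave 4.34 to 5.61. In the BT intima it passed with all genes that had a count (5.41), DESeq2 (5.38) and the 16-library fit (5.41), with 4.92 to 6.13 without a rabbit. In the media it no longer passed with the version 4 form at the BA (fitted 12.99, 11.36 to 14.01 without a rabbit) and the 16-library fit at the BT (4.34, 3.92 to 4.88 without a rabbit). The cause was not tested. A fit without 1 sham or ligated rabbit rests on a lone library that is assumed to vary like the others.

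The difference of layers was 2.41 to 3.39 without a rabbit, and its sign-flip mean 2.47 to 3.37, where 6 pairs, flipped as if separate, allow no exact p below 0.0313. Without the replicate block it was 2.61 (q = 0.0231), and 2.52 with a block of rabbit alone. The difference of locations in the intima was 0.23 without the block, and -0.19 to 0.51 without a rabbit. Its difference with flow was 0.29 without the block and -0.63 to 1.48 without a rabbit, with -0.63 without rabbit 5. The layer differences in the change were -8.59 (BA, fitted) and 1.05 (BT) without the block, which changed no call of TM4SF18. No paired analysis was possible for flow because ligated and sham animals were different rabbits. The medial difference of locations stayed within 1 SD at 1.82 to 3.87.

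The number of genes past the threshold ranged over the alternatives from 0 to 126 in the BA intima, 0 to 613 in the BT intima, 0 to 508 in the BA media (71 as reported), 19 to 645 in the BT media (206), 187 to 1680 for the layers (813), 0 to 36 for locations in the intima (1), and 0 to 176, 0 to 11 and 0 to 111 for the 3 differences of change. Scaling by library size alone turned 439 higher and 374 lower genes in the intima into 647 and 207, 102 and 104 with ligation in the BT media into 126 and 68, and 38 and 33 in the BA media into 33 and 53. At the depth of the sham BA media libraries, 0 counts allow up to 0.283 and 0.491 CPM, for counting error only.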
